A study of Mus musculus with 4 samples.

Results

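The cholesterol pathway is described here through 8 genes chosen by name: the enzymes Hmgcs1, Idi1, Fdps, Fdft1, Sqle and Cyp51 and the regulators Insig1 and Srebf2. They are 8 of the 45773 genes with a value in all 4 libraries, and all 8 were among the 12570 measured genes, meaning a mean of at least 1 TPM (a transcript level divided by transcript length and scaled to the same total in each library) over the libraries. None of the 8 is an uptake receptor, so uptake genes are given from a separate list. The libraries were made by SMART-seq, which amplifies full-length cDNA from little RNA, from CD8 T cells taken out of mouse tumours. In the gain experiment, PmelI CD8 T cells, whose transgenic receptor recognises gp100, were transduced with Klf4 or with the retroviral vector MigRI. They were injected on day 7 into Rag2 KO mice carrying MC38-gp100 tumours, and GFP+ cells were recovered on day 15. Rag2 KO hosts make no T or B cells of their own. In the loss experiment, PD1+ CD8+ cells were recovered on day 14 from MC38 tumours of Klf4 cKO mice and of control (WT) mice. The labels do not name the Cre driver or the deleted part of Klf4, and do not say whether animals were pooled. Tumours were seeded with 300000 cells and yielded 10000 to 20000 T cells for each library. Each group held 1 library, so no difference below has a replicate check, a spread or a p-value.

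Cells make cholesterol from acetyl-CoA through mevalonate, the isoprenoid diphosphates, squalene and lanosterol. SREBP2, the product of Srebf2, is a transcription factor held in the endoplasmic reticulum by INSIG proteins while sterols are plentiful. When sterols run low it travels to the Golgi, is cut, and switches on the synthesis enzymes and its own inhibitor INSIG1. Activated T cells use this program to build membrane as they divide, and membrane cholesterol also takes part in receptor clustering at the synapse.

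Levels were compared within each experiment on the log2(TPM + 1) scale, and a gene was called when it differed by 1 log2 (2-fold) or more. The median over measured genes was itself displaced, by 0.79 log2 for Klf4 over MigRI and by 0.74 log2 for Klf4 cKO over control. A relative log2 difference is the deposited difference minus that median. Genes at 1 TPM or more numbered from 10542 to 13170 per library. Read depth cannot be recovered from TPM and is unknown. Genes whose longest transcript is under 1000 nucleotides held 21.7% of all TPM in the Klf4 library and 38.8% in MigRI, and 41.3% in the library labelled Klf4 cKO, against 54.9% in control. The longest transcripts of the 8 genes run from 2697 to 5077 nucleotides. Long coding genes were therefore also used as a baseline, and the part of transcript length in the differences was not otherwise tested. Klf4 itself was at 26.0 TPM in the Klf4 library and 8.69 TPM in the MigRI library, and at 9.28 TPM in the Klf4 cKO library and 7.52 TPM in the control library. Klf4 was thus not lower in the library labelled Klf4 cKO, whose directions rest on its label. All 10 CD8 T cell markers were above 0 in every library. Their summed level was 5813 TPM in the Klf4 library and 24626 TPM in the MigRI library, and in the other experiment 18556 TPM for Klf4 cKO and 7972 TPM for control. Tumour epithelium markers summed to between 2.7 and 9.7 TPM in each library, with Krt19 at 0 in all 4.

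Promoter sequence was at hand for 5 of the 8 genes, from RefSeq on GRCm38.p6 (mm10). The 250 bases before the annotated start are printed for 3 of them, to set Hmgcs1, an early enzyme, beside both regulators. Capitals mark the NF-Y box CCAAT, in either orientation, and the SREBP core TCACNCCAC, found in Hmgcs1 alone of the 5 windows. The windows lie at chr13:119690101-119690350, chr5:28071162-28071411 and chr15:82147019-82147268, all on the plus strand, and are given 5′ to 3′.
Hmgcs1: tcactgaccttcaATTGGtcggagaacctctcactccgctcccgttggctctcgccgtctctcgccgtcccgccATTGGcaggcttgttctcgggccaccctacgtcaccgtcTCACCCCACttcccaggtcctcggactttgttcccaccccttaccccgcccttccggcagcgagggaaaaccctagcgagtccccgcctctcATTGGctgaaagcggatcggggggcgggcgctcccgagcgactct
Insig1: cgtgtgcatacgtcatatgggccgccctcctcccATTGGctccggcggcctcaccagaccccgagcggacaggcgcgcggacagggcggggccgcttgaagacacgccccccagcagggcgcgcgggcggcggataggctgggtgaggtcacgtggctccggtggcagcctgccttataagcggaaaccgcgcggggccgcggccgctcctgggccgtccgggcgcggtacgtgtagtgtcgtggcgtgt
Srebf2: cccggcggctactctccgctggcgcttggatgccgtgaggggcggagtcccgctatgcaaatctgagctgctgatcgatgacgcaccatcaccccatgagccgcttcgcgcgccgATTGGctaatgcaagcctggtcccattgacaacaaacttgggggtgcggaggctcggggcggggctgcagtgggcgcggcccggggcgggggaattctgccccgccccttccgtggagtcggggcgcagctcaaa

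The SREBP core, searched on both strands, occurred in the window of Hmgcs1, 137 bases before the start, and in 1.05% of all 32851 promoter windows. CCAAT occurred in all 5 windows (Hmgcs1, Idi1, Cyp51, Insig1 and Srebf2) and in 33.8% of all windows. The Sp box GGGCGG also occurred in all 5, against 32.7% of all windows. CACCC, the core of sites bound by Kruppel-like factors, occurred in the windows of Hmgcs1, Insig1 and Srebf2 and in 52.0% of all windows. One CACCC of Hmgcs1 lies inside its SREBP core. These are matches of letters and do not show binding.

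All 8 genes were at least 2-fold higher in Klf4-transduced than in MigRI cells, with TPM ratios from 3.05 to 7.72. As deposited, 43.7% of measured genes were that much higher. Relative to the median gene, 6 of the 8 were at least 2-fold higher and none lower, against 21.4% of measured genes higher and 23.6% lower. The median of the 8 was 2.17 log2 as deposited and 1.37 log2 relative, where measured genes have a relative median of 0 by construction.

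**Figure D1:**
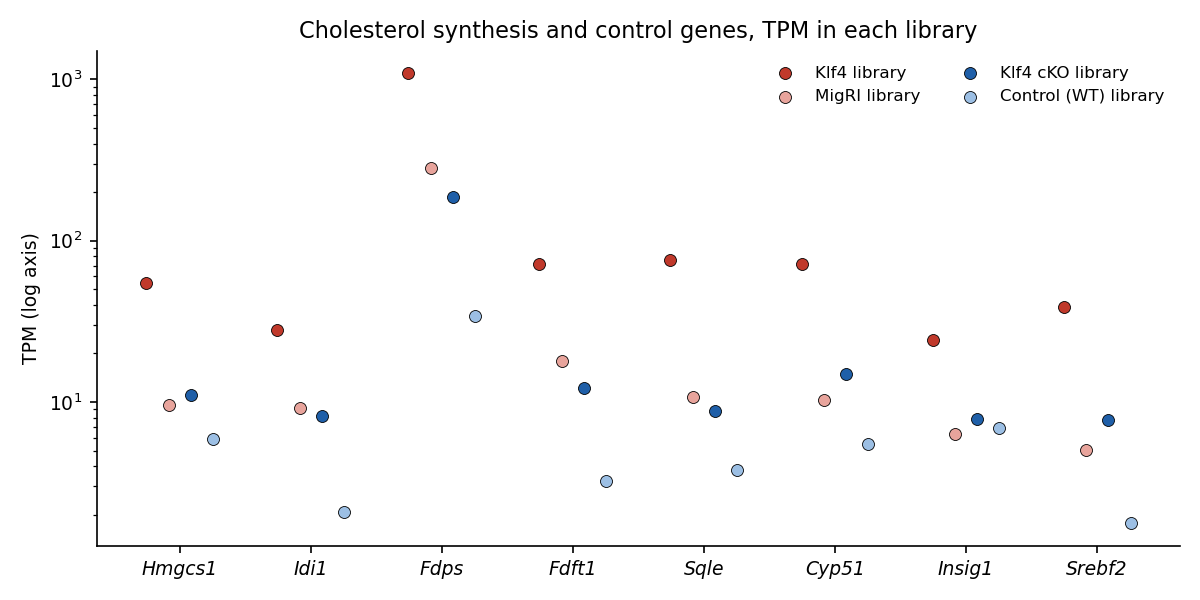
TPM on a log axis for each of the 8 genes, 1 point per library, in the order Klf4, MigRI, Klf4 cKO, Control (WT). The Klf4 library holds the highest value of every gene, and Fdps lies above the other 7 in each library.

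Hmgcs1, the cytosolic synthase that makes HMG-CoA, was at 54.5 TPM in the Klf4 library and 9.62 TPM in the MigRI library. Its relative log2 difference was 1.59. Idi1, the isomerase that makes dimethylallyl diphosphate, was at 27.8 TPM with Klf4 and 9.14 TPM with MigRI. Its relative difference of 0.71 log2 was the smallest of the 8. Fdps, which joins isoprenoid units into farnesyl diphosphate, was at 1090 TPM with Klf4 and 282 TPM with MigRI, a relative difference of 1.16 log2.

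The steps committed to sterols were higher too. Fdft1, the squalene synthase, was at 71.9 TPM with Klf4 and 18.0 TPM with MigRI, a relative difference of 1.15 log2. Sqle, the epoxidase that oxidises squalene, was at 76.1 TPM with Klf4 and 10.7 TPM with MigRI, a relative difference of 1.92 log2. Cyp51, which demethylates lanosterol, was at 71.3 TPM with Klf4 and 10.3 TPM with MigRI, a relative difference of 1.89 log2. Sqle exceeded Idi1 by 1.21 log2 in the size of the difference, a gap that a common scaling factor hardly moves.

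Among the regulators, Srebf2 was at 38.8 TPM with Klf4 and 5.03 TPM with MigRI. Its TPM ratio of 7.72 was the highest of the 8, and its relative difference was 1.93 log2. Insig1, which retains SREBP2 in the endoplasmic reticulum and is also one of its targets, was at 24.3 TPM with Klf4 and 6.34 TPM with MigRI. Its relative difference of 0.99 log2 fell just short of the call, as Idi1 did by more.

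**Figure D2:**
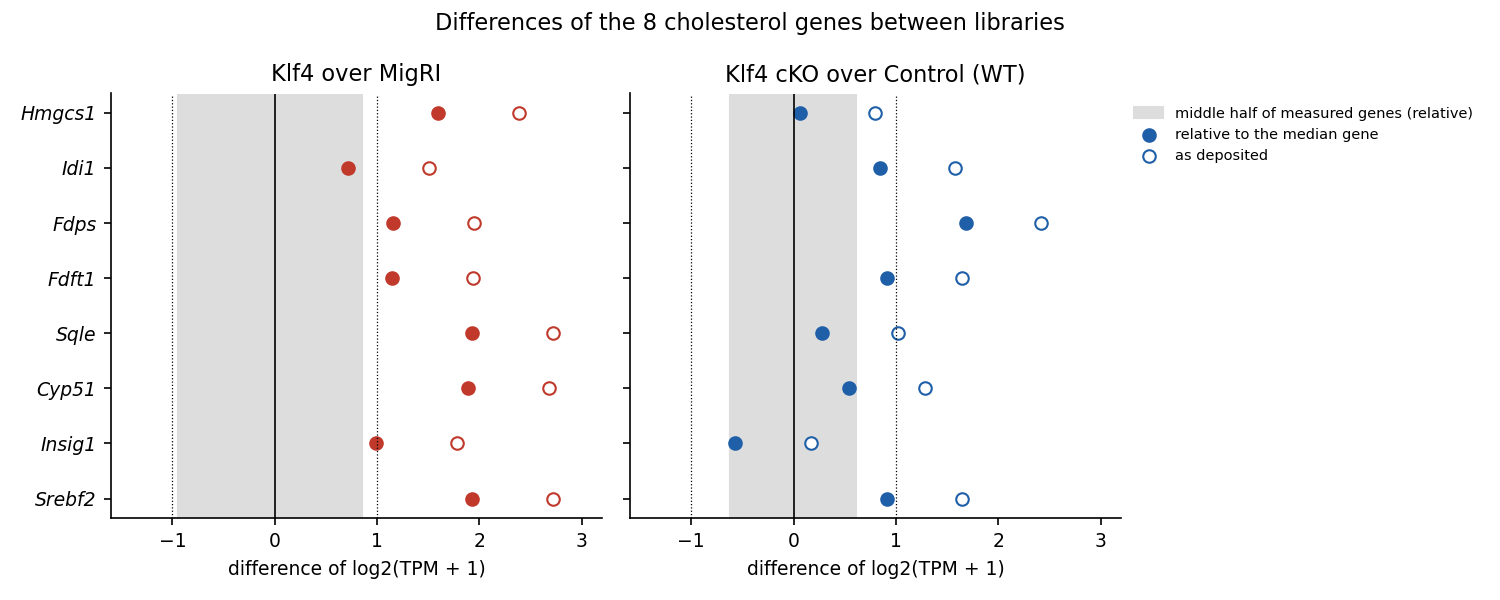
Differences of log2(TPM + 1) for the 8 genes, open points as deposited and filled points relative to the median gene. Grey bands run between the quartiles of the relative differences of measured genes, and dotted lines mark 2-fold. For Klf4 over MigRI 7 filled points lie right of the band and Idi1 lies inside it, while for Klf4 cKO over control 4 lie right of it.

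The library labelled Klf4 cKO also had higher values than control for all 8 genes as deposited, with TPM ratios from 1.14 to 5.48, although set against T cell receptor constant genes their median was -0.33 log2. Of the 8, 6 were at least 2-fold higher and none lower, against 38.4% of measured genes higher and 6.92% lower. On the relative scale 1 of the 8, Fdps, was at least 2-fold higher and none lower, against 12.4% of measured genes higher and 16.2% lower. The median of the 8 was 1.43 log2 as deposited and 0.69 log2 relative. Fdps was at 186 TPM in the library labelled Klf4 cKO, against 34.02 TPM in control, a relative difference of 1.68 log2.

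Another 3 genes sat below the call but above the upper quartile of measured genes, which was 0.61 log2 relative. Fdft1 was at 12.3 TPM in the library labelled Klf4 cKO, against 3.24 TPM in control, a relative difference of 0.91 log2. Srebf2 was at 7.69 TPM in the library labelled Klf4 cKO, against 1.78 TPM in control, also 0.91 log2. Idi1 was at 8.17 TPM in the library labelled Klf4 cKO, against 2.07 TPM in control, a relative difference of 0.84 log2.

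The remaining 4 lay closer to the median gene. Cyp51 was at 14.9 TPM in the library labelled Klf4 cKO, against 5.52 TPM in control, a relative difference of 0.55 log2. Sqle was at 8.74 TPM in the library labelled Klf4 cKO, against 3.81 TPM in control, a relative difference of 0.28 log2, and Hmgcs1 was at 11.03 TPM in that library and 5.92 TPM in control, 0.06 log2. Insig1 was the one gene of the 8 below the median gene, at 7.90 TPM in the library labelled Klf4 cKO, against 6.93 TPM in control, a relative difference of -0.57 log2. Fdps and Insig1 stood 2.25 log2 apart in this comparison and 0.17 log2 apart in Klf4 over MigRI.

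The composition of the set also varied. Fdps made up 74.9% of the summed TPM of the 8 genes in the Klf4 library and 80.3% in MigRI, and 72.5% in the library labelled Klf4 cKO and 53.8% in control. Without Fdps, the sum of the other 7 was 365 TPM with Klf4 and 69.1 TPM with MigRI, a ratio of 5.28. The same sum was 70.7 TPM in the library labelled Klf4 cKO, against 29.3 TPM in control, a ratio of 2.42. Next after Fdps in order of level came Sqle with Klf4, Fdft1 with MigRI, Cyp51 in the library labelled Klf4 cKO and Insig1 in control. Srebf2 was the lowest of the 8 in 3 libraries and Insig1 in the Klf4 library. With 1 library each, it is unknown which neighbours in these orders differ beyond a spread between animals.

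Some of these levels share sequence with other genes. The Fdps mRNA is closely matched by processed pseudogenes, among them Gm3571 over 1062 bases at 98.9% identity and Gm5873 over 1056 bases at 96.9%. Gm3571 was at 34.3 TPM with Klf4 and 10.49 TPM with MigRI, and at 5.70 TPM in the library labelled Klf4 cKO, against 1.38 TPM in control. Gm6781, at 97.4% identity to Fdft1, was at 12.6 TPM with Klf4 and 2.70 TPM with MigRI. Idi1 is matched by the processed pseudogenes Gm13502, over 684 bases at 100% identity, and Gm35570, over 681 bases at 97.7%. Gm35570 was at 0.053 TPM with Klf4 and 0 TPM with MigRI, and Gm13502 has no value in these libraries. How reads were divided between these copies and their parent genes is not stated in the labels, so Fdps, Fdft1 and Idi1 are uncertain to that extent. Fdft1 also shares 774 bases at its 3′ end with the cathepsin gene Ctsb on the opposite strand, which the kit cannot tell apart. Ctsb was at 440 TPM with Klf4 and 55.9 TPM with MigRI, and at 80.6 TPM in the library labelled Klf4 cKO, against 22.3 TPM in control. Cyp51 overlaps the opposite-strand gene Akap9 by 166 bases, with Akap9 at 9.38 TPM with Klf4 and 11.4 TPM with MigRI. Gm43738, a coding gene annotated over 7512 bases of Fdps on the same strand, was not analysed here. Sqle and Insig1 overlap no annotated gene.

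The rest of the synthesis pathway was read from a list of 14 other enzymes. In Klf4 over MigRI, 10 of the 14 were at least 2-fold higher and none lower as deposited, against 43.7% of measured genes higher. On the relative scale 7 were higher and 1 lower, against 21.4% and 23.6% of measured genes. Their relative median was 1.06 log2. Mvd, the decarboxylase that makes isopentenyl diphosphate, was at 101 TPM with Klf4 and 10.9 TPM with MigRI, a relative difference of 2.31 log2. Mvk, the mevalonate kinase, was at 77.1 TPM with Klf4 and 9.69 TPM with MigRI, 2.08 log2. Sc5d and Dhcr7, which act late in the sterol ring, both differed by 2.04 log2 relative.

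The 4 enzymes under 2-fold as deposited, named after their values were seen, were Pmvk, Lbr, Ebp and Tm7sf2. Ebp, a sterol isomerase, was at 93.1 TPM with Klf4 and 93.5 TPM with MigRI. Tm7sf2, a sterol reductase, was the 1 enzyme called lower on the relative scale, at 2.08 TPM with Klf4 and 2.57 TPM with MigRI, -1.01 log2. Lbr, a nuclear envelope protein, carries the same reductase activity.

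**Figure D3:**
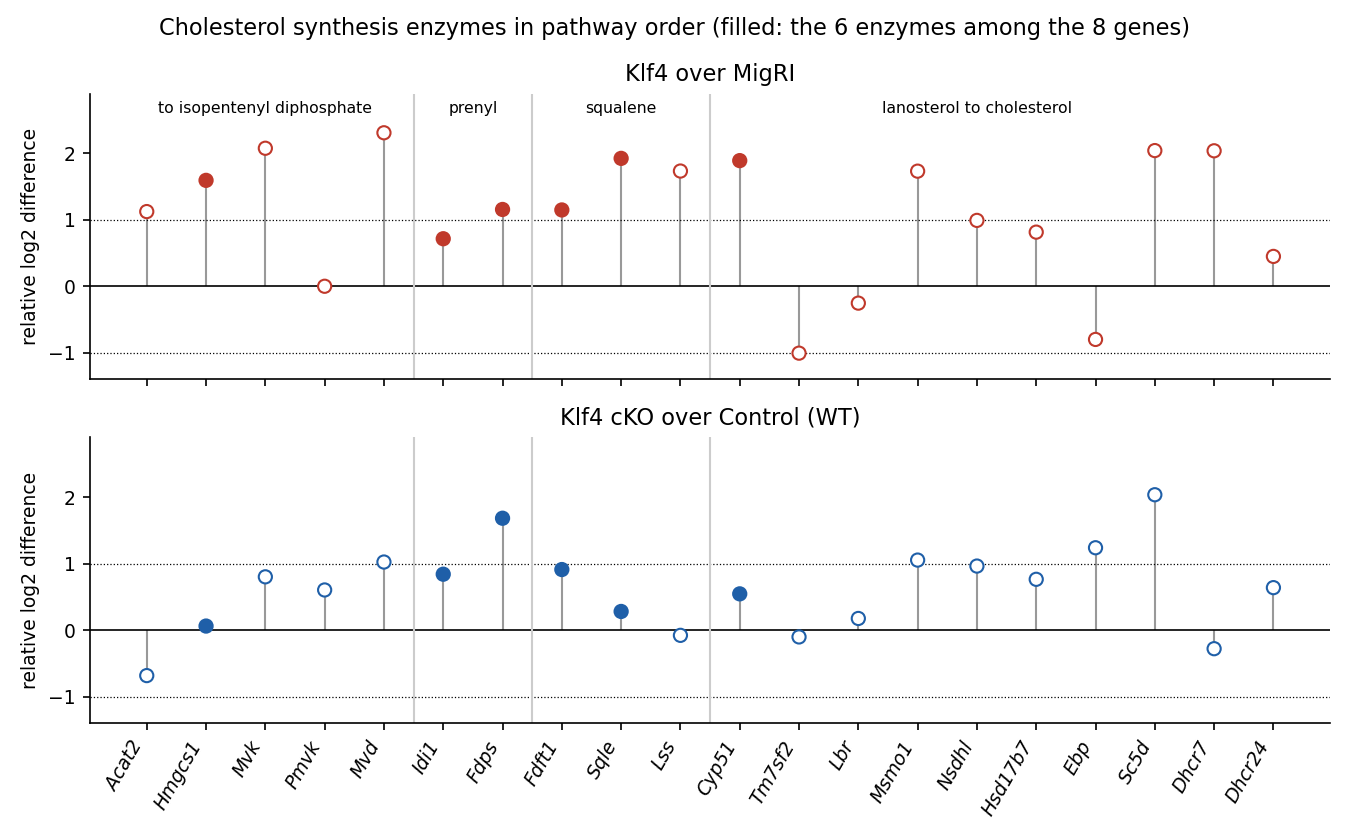
Relative log2 differences of 20 synthesis enzymes in pathway order, filled for the 6 among the 8 genes and open for the other 14. For Klf4 over MigRI 12 enzymes reach 1 log2 and Ebp, Lbr and Tm7sf2 lie below 0, with Pmvk at the line. For Klf4 cKO over control 5 reach 1 log2.

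In the library labelled Klf4 cKO over control, 9 of the 14 were at least 2-fold higher and none lower as deposited, against 38.4% of measured genes higher. On the relative scale 4 were higher and none lower, against 12.4% and 16.2% of measured genes. Their relative median was 0.70 log2. Named after their values were seen, the 4 were Sc5d, Ebp, Msmo1 and Mvd. Sc5d was at 20.2 TPM in the library labelled Klf4 cKO, against 2.10 TPM in control, a relative difference of 2.04 log2 that matches its value for Klf4 over MigRI. Ebp was at 90.4 TPM in the library labelled Klf4 cKO, against 22.2 TPM in control, 1.24 log2 relative.

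Of 7 listed uptake and lysosomal release genes 6 were measured, while Vldlr was below the filter. With Klf4, 3 of the 6 measured, Scarb1, Lipa and Npc2, were at least 2-fold higher and none lower relative, with a median of 0.83 log2. Of all measured genes 21.4% were higher and 23.6% lower. In the library labelled Klf4 cKO, none was called in either direction on the relative scale (median 0.38 log2), against 12.4% higher and 16.2% lower. As deposited 3 of the 6 were higher there, against 38.4% of measured genes. Scarb1, the HDL receptor, was at 88.7 TPM with Klf4 and 4.40 TPM with MigRI, 3.26 log2 relative. Lipa, the lysosomal acid lipase, was at 20.8 TPM with Klf4 and 2.57 TPM with MigRI, 1.82 log2 relative. Npc2, which binds cholesterol in the lysosome, was at 230.5 TPM with Klf4 and 64.8 TPM with MigRI, 1.02 log2 relative. The difference between the 2 comparisons was not tested.

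Of 5 genes listed for SREBP and its processing, 3 were at least 2-fold higher and none lower as deposited for Klf4 over MigRI. Among measured genes 43.7% were that much higher. Relative to the median gene 1 was higher, against 21.4% of measured genes, and the list's median was 0.63 log2. That gene was Srebf1, which encodes an SREBP, the factor of fatty acid synthesis, and not a protein that processes it. Srebf1 was at 16.7 TPM with Klf4 and 3.09 TPM with MigRI, 1.33 log2 relative. None of the processing genes was called on the relative scale. Scap, the escort of SREBP, was at 4.61 TPM with Klf4 and 1.84 TPM with MigRI, 0.19 log2 relative. Insig2, which encodes the other INSIG protein, was at 23.2 TPM with Klf4 and 14.5 TPM with MigRI, -0.15 log2 relative. In the library labelled Klf4 cKO over control none of the 5 was called on either scale. Of all measured genes 38.4% were higher and 6.92% lower there as deposited, and 12.4% higher and 16.2% lower relative. Fatty acid synthesis genes, targets of SREBP1, had 6 of 9 measured genes higher and none lower relative with Klf4, with a median of 1.39 log2. Of all measured genes 21.4% were higher and 23.6% lower on that scale. Fads2, a desaturase, was at 69.6 TPM with Klf4 and 3.56 TPM with MigRI, 3.16 log2 relative. In the library labelled Klf4 cKO the relative median of the fatty acid genes was -0.14 log2. None of the 9 was called on that scale, against 12.4% of measured genes higher and 16.2% lower. As deposited 1 of the 9 was higher there, against 38.4% of measured genes. The difference between the 2 comparisons was not tested for this list.

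Side branches were read from 2 more lists. Isoprenoid branch genes use farnesyl diphosphate for ubiquinone, dolichol and protein prenylation. Of 8, 1 was higher and 1 lower relative with Klf4, against 21.4% and 23.6% of measured genes. None was called in the library labelled Klf4 cKO, against 12.4% higher and 16.2% lower. The relative median of the 8 isoprenoid genes was 0.10 log2 for Klf4 over MigRI and 0.11 log2 for Klf4 cKO over control. Of 8 measured genes listed for efflux, storage and LXR targets, 4 were higher and none lower relative with Klf4, against 21.4% of measured genes higher. Named after their values were seen, the 4 were Ch25h, Apoe, Soat1 and Nr1h2. In the library labelled Klf4 cKO 1 of the 8 was higher and none lower, a share near the 12.4% of measured genes. Soat1, which esterifies cholesterol for storage, was at 29.5 TPM with Klf4 and 3.35 TPM with MigRI, 2.01 log2 relative. It was at 4.37 TPM in the library labelled Klf4 cKO, against 4.63 TPM in control, -0.81 log2 relative. Ch25h, which makes the SREBP inhibitor 25-hydroxycholesterol, was at 39.7 TPM with Klf4 and 2.58 TPM with MigRI, and at 6.16 TPM in the library labelled Klf4 cKO, against 0.364 TPM in control. Abcg1, a sterol exporter induced by LXR, was at 2.32 TPM with Klf4 and 1.07 TPM with MigRI, -0.12 log2 relative.

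**Figure D4:**
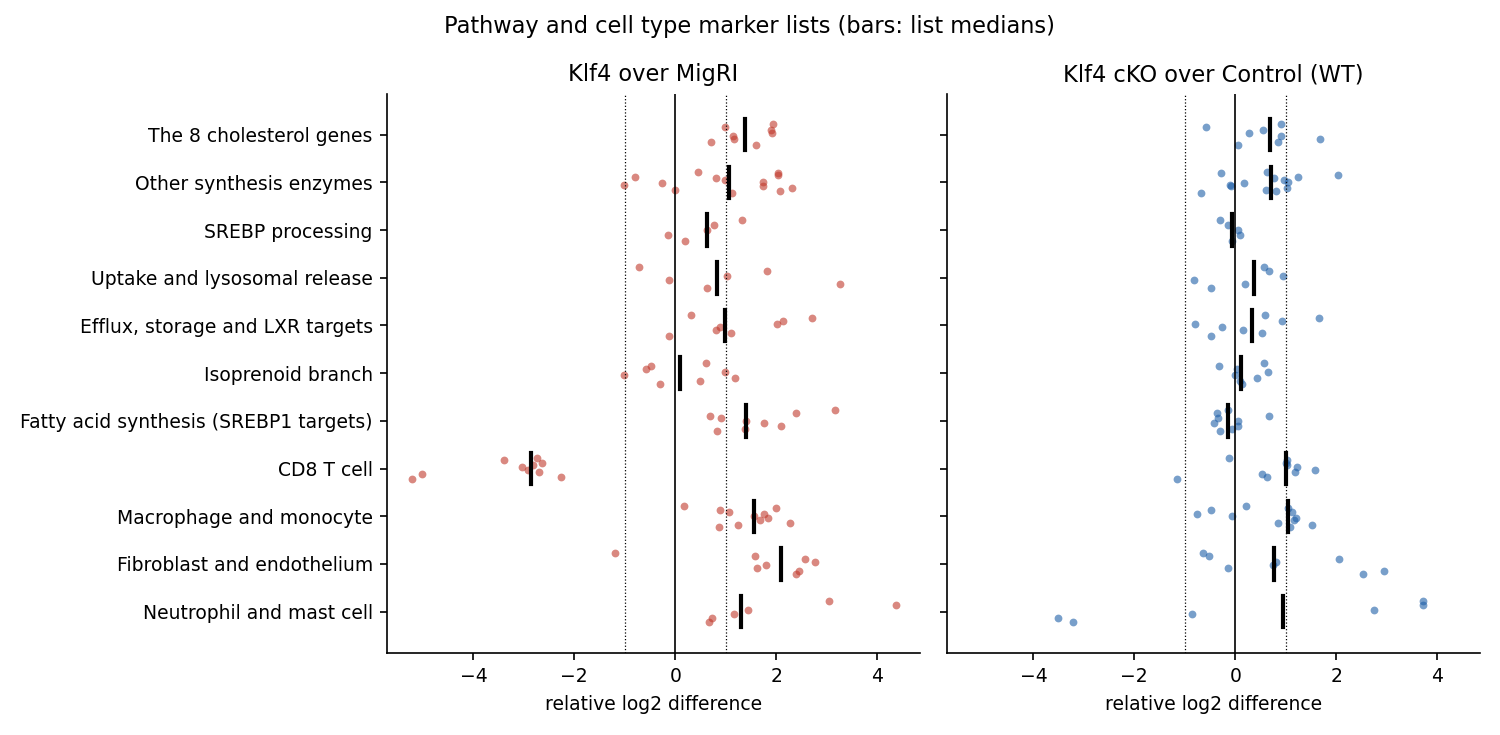
Relative log2 differences of the measured genes of each list, 1 point per gene, with black bars at list medians and dotted lines at 2-fold. For Klf4 over MigRI the CD8 T cell list lies below 0 while the 8 genes and the other synthesis, fatty acid, macrophage, fibroblast and neutrophil and mast cell lists have medians above 1.

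Macrophage and fibroblast markers were higher in the same libraries as the 8 genes. Beside the relative counts of markers below, 21.4% of all measured genes were higher and 23.6% lower for Klf4 over MigRI. For Klf4 cKO over control 12.4% were higher and 16.2% lower. Macrophage and monocyte markers summed to 5658 TPM with Klf4 and 1424 TPM with MigRI, and to 1490 TPM in the library labelled Klf4 cKO, against 417 TPM in control, with none of the 12 at 0. Of 11 measured, 8 were higher and none lower relative with Klf4, with a median of 1.56 log2, and 6 higher and none lower in the library labelled Klf4 cKO, with a median of 1.04 log2. Fibroblast and endothelium markers summed to 1387 TPM with Klf4 and 144 TPM with MigRI, and to 253 TPM in the library labelled Klf4 cKO, against 29.2 TPM in control. Of 8 measured, 7 were higher and 1 lower relative with Klf4, and 3 higher and none lower in the library labelled Klf4 cKO. Of 9 listed, Cdh5 was at 0 in control. CD8 T cell markers went the other way with Klf4, with all 10 lower by at least 2-fold relative, and 5 higher and 1 lower in the library labelled Klf4 cKO. Neutrophil and mast cell markers summed to 151 TPM with Klf4 and 30.6 TPM with MigRI, and to 56.3 TPM in the library labelled Klf4 cKO, against 29.6 TPM in control. Of 6 measured, 4 were higher and none lower relative with Klf4, and 3 higher and 2 lower in the library labelled Klf4 cKO. Named after their values were seen, the 2 lower were the neutrophil genes S100a8 and S100a9, with levels in the library labelled Klf4 cKO of 2.44 and 0.732 TPM, against 18.1 and 10.9 TPM in control. The 3 higher were the mast cell genes Tpsb2, Cma1 and Cpa3, with levels in the library labelled Klf4 cKO of 21.1, 20.9 and 10.2 TPM and all listed at 0 in control. Erythroid markers summed to 447 TPM with Klf4 and 546 TPM with MigRI, and to under 5 TPM in each of the other libraries. B cell, dendritic cell, CD4 T cell and NK cell markers summed to between 0.621 and 23.7 TPM per list and library. Apoe, a lipid carrier made by macrophages, was at 756 TPM with Klf4 and 98.8 TPM with MigRI, and at 254 TPM in the library labelled Klf4 cKO, against 79.1 TPM in control. The part of these cells in the differences of the 8 genes was not tested. In bulk RNA, a change in the number of cells of a type and a change in RNA per cell cannot be told apart.

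The genes whose 2 differences lay nearest the medians of the 8 were Exosc10, Gnas, Wdr77, Gla and Coq9, at Euclidean distances of 0.0099 to 0.047 log2. They were sought over 2 comparisons of 4 libraries among 4835 genes of at least 10 TPM in the mean. Within 0.5 log2 of both medians lay 542 of those genes, or 11.2%, so many genes lie near that midpoint. Of the 8 themselves Fdft1 alone lay there, with deposited differences of 1.94 and 1.65 log2. The 8 spread over 1.22 log2 for Klf4 over MigRI and 2.25 log2 for Klf4 cKO over control. Nearness to the medians is thus not likeness to each of the 8. Exosc10 was at 40.7 TPM with Klf4 and 8.35 TPM with MigRI, and at 8.28 TPM in the library labelled Klf4 cKO, against 2.44 TPM in control.

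How many of the 8 were called depended on the scaling. For Klf4 over MigRI all 8 kept a positive difference under each of 12 alternatives, while the number called ran from 4 to 8. Median of ratios scaling, and setting the 8 against coding genes with a transcript of at least 1000 nucleotides, each left 4 called. For Klf4 cKO over control the number called higher ran from 0 to 6. The share of all measured genes called was counted for the deposited values and the relative scale only. Under the remaining alternatives, whether the 8 lost calls more often than other genes was not tested. Set against the T cell receptor constant genes Trac, Trbc1 and Trbc2, the median of the 8 was 4.18 log2 for Klf4 over MigRI and -0.33 log2 for Klf4 cKO over control. Trac was at 274 TPM with Klf4 and 1295 TPM with MigRI, and at 2164 TPM in the library labelled Klf4 cKO, against 556 TPM in control.

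**Figure D5:**
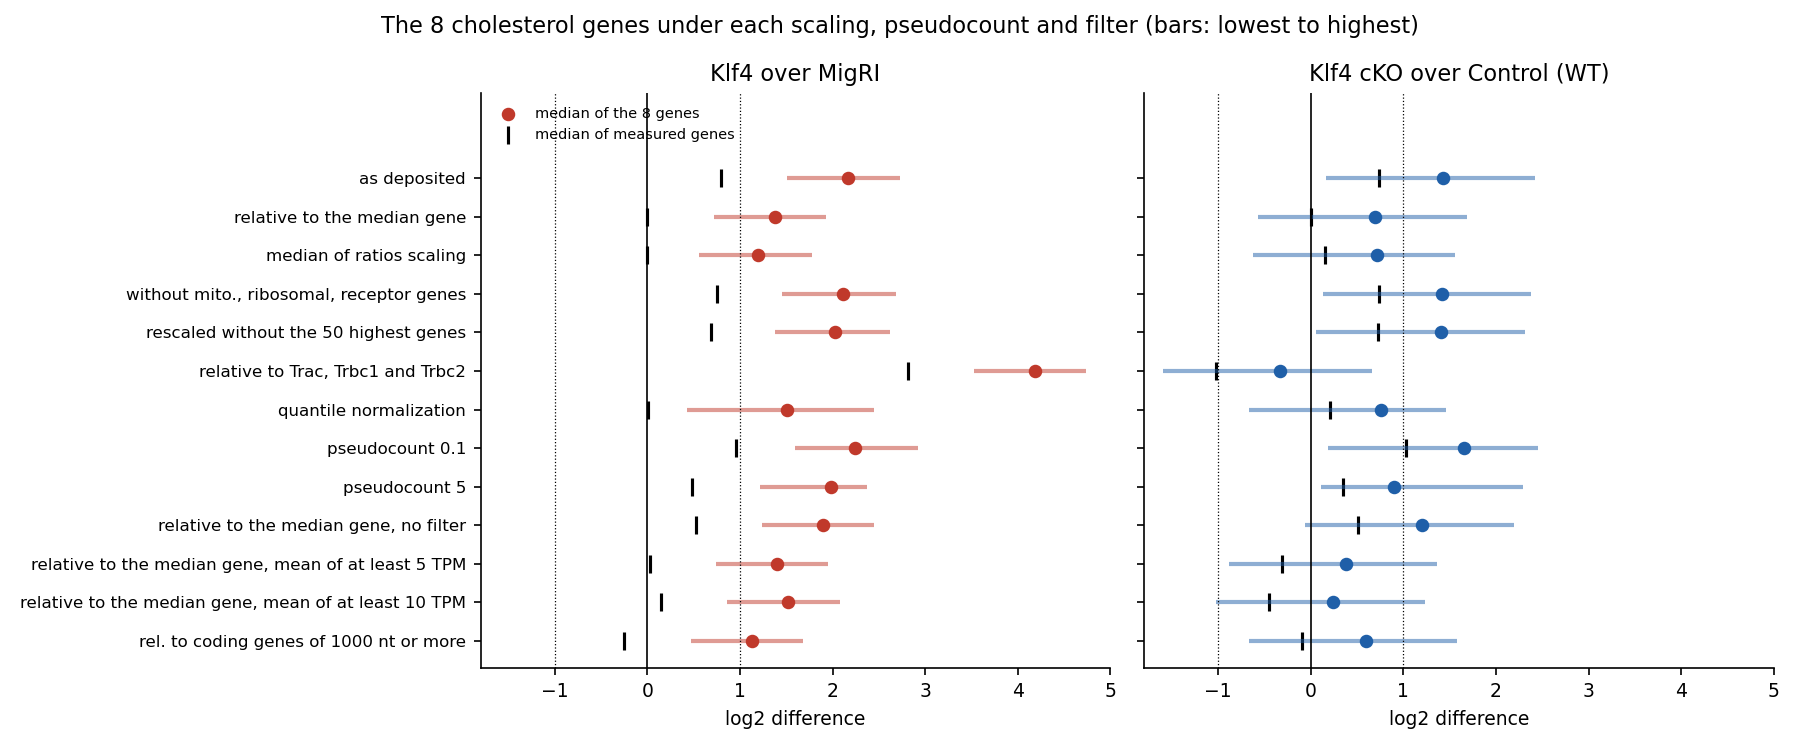
Median (point) and lowest to highest difference (bar) of the 8 genes as deposited and under 12 alternatives, with a black tick at the median of the measured genes. For Klf4 over MigRI every bar lies above 0, and for Klf4 cKO over control it reaches below 0 under 8 of the 12.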

How the data were processed

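The authors deposited a TPM value per gene symbol for each library, per the file headers. The submitters' processing notes name HISAT2, StringTie, Trimmomatic and edgeR with the build mm10, while versions, roles and annotation are not given in the sources. TPM hold no read depth and hence no counting error, and a few abundant transcripts lower all other values of a library. Each table held 45777 entries. In that of the control library 26 symbols had become dates: 22 were mapped back by name, and 4 genes were left out of all libraries.

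Differences were taken with a pseudocount of 1, which understates low genes. The script was tested on simulated data. Coordinates and lengths came from GENCODE vM21 (mm10). Similar transcripts were found with minimap2. Other computations used Python 3.11.15 with pandas 2.3.3 and numpy 2.4.6.

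The 8 genes, the lists, the naming rule and the alternatives were chosen with earlier results of these data known. Named beside the 8 were up to 4 genes per pathway list with the largest relative difference and a few regulators. The 2 highest markers per list and the 5 genes nearest the medians of the 8 were named too. Values of some of these are not printed, and some genes of the synthesis and uptake lists are not reported here and not counted. The setting against long coding genes was chosen after seeing the data.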

Additional observations from a re-analysis of the deposited data

How the results depend on the processing

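With 1 library per group, no library could be left out. No paired analysis was possible because each group held 1 library and the labels carry no replicate numbers. For Klf4 over MigRI, the count of the 8 genes called moved past 1.5 times under 2 alternatives, to 4 under median of ratios scaling and to 4 relative to long coding genes, and the direction of no gene of the 8 turned. For Klf4 cKO over control, 6 called genes became 2 under median of ratios scaling or a pseudocount of 5, and 1 relative to the median gene, to long coding genes or to the median at a filter of 5 TPM. At a filter of 10 TPM 1 was higher and 1 lower, 2 in all, and relative to the receptor constant genes 0 were higher and 1 lower. The median measured gene was lower under these settings too. Its difference was 0.74 log2 as deposited, 0.15 under median of ratios scaling and 0.35 at a pseudocount of 5. It was -1.02 log2 relative to the receptor constant genes. Apart from the median-gene scale, no share of measured genes called was counted under these settings, so the counts of the 8 lack that comparison. The median of the 8 went to 0.72 under median of ratios, 0.76 under quantile normalization, 0.90 at a pseudocount of 5, 0.69 relative to the median gene, 0.60 relative to long coding genes, 0.38 at a filter of 5 TPM and 0.24 at 10 TPM. The cause was not tested.

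Relative to the receptor constant genes, signs turned for Klf4 cKO over control in 7 of the 8 genes, all but Fdps: the median of the 8 was -0.33, Insig1 -1.59, Hmgcs1 -0.96, Sqle -0.74, Cyp51 -0.47, Idi1 -0.18, Srebf2 -0.11 and Fdft1 -0.11 log2. Of other genes called as deposited, Mvk was at -0.22, Pmvk -0.42, Npc2 -0.079, Lipa -0.34, Nr1h2 -0.49 and Apoe -0.085 log2. For the genes nearest the medians of the 8 they were -0.32 for Exosc10, -0.36 for Gnas, -0.30 for Wdr77, -0.33 for Gla and -0.28 for Coq9. List medians were -0.32 for the 14 other enzymes, for all 20 enzymes and for lanosterol to cholesterol. They were -0.42 for the steps to isopentenyl diphosphate, -0.64 for uptake and -0.68 for efflux, storage and LXR targets. At a filter of 10 TPM, Insig1 was at -1.02, Hmgcs1 at -0.39, Sqle at -0.17, the uptake median at -0.072 and the efflux median at -0.11. At 5 TPM, Insig1 was at -0.88, Hmgcs1 at -0.25 and Sqle at -0.034. Hmgcs1 was also below 0 relative to long coding genes (-0.037), and Insig1 was below 0 under 8 of the 12 alternatives.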
